A study of Mus musculus with 8 samples.

Results

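Branched-chain amino acid catabolism is the mitochondrial pathway that breaks down leucine, isoleucine and valine. It was followed here through 10 genes: Bcat2, Bckdha, Bckdhb, Dbt, Bckdk, Ppm1k, Ivd, Mccc1, Hibadh and Mut, which current annotation calls Mmut. The 10 genes were chosen by name, and each had at least 1 probe designed on its RefSeq transcript that was well above background on 4 or more of the 8 arrays. They account for 11 of the 34038 probes retained in the experiment, since Mccc1 has 2 probes and the other genes have 1 each. The brighter probe of Mccc1 was used. All 10 probes were well above background on all 8 arrays.

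The experiment compared 4 MI mice with 4 sham-operated mice. All were male C57BL\6 animals, and the ventricles were taken 24 hours after surgery. In MI mice the anterior interventricular artery was permanently ligated, and the sham operation is not described further in the sources used here. The labels name no engineered allele and no drug treatment, but all mice had a PET exam with Acipimox (a drug that lowers circulating fatty acids) and a labeled glucose analogue. Total RNA of the ventricles was labeled with Cy3 and each mouse had 1 array. Infarcted and surviving muscle were therefore measured together, and fewer cells of a type cannot be told apart from less RNA per cell.

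Leucine, isoleucine and valine first lose their amino group to a transaminase, and the resulting keto acids are then decarboxylated by the branched-chain ketoacid dehydrogenase complex. This second step is irreversible, and it is switched off when a kinase phosphorylates the complex and on when a phosphatase removes the phosphate. Separate enzymes then carry the 3 carbon skeletons to acetyl-CoA, acetoacetate or succinyl-CoA. Heart muscle expresses the pathway, and lowered expression of its genes is a known feature of the failing heart.

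The phosphatase, its opposing kinase and a pair of members that fell with the phosphatase after scaling to the 75th percentile (described further on) are shown by their upstream sequence. For 8 of the 10 genes a promoter was listed by RefSeq (build GRCm38.p6). The 250 bases before a listed start site of Ppm1k (the phosphatase), Bckdk (the kinase), Bckdhb (a subunit of the complex) and Mccc1 (an enzyme of leucine breakdown) are printed 5′ to 3′ on the strand of the gene. Capitals mark the GC box (GGGCGG or its reverse complement CCGCCC), the CCAAT box (CCAAT or ATTGG) and the letters CACCC (or GGGTG), which Krüppel-like factors can bind.
Ppm1k, chr6:57535488-57535737, minus strand: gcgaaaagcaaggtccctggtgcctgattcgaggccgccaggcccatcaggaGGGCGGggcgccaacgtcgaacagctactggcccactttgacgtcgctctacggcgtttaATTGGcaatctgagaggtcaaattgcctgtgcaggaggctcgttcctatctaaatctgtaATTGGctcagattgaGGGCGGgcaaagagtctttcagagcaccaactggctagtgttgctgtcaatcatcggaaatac
Bckdk, chr7:127903823-127904072, plus strand: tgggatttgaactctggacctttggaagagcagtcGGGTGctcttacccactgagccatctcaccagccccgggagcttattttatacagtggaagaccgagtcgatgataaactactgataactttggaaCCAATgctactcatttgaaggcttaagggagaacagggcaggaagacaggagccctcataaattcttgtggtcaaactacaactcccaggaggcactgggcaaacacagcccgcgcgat
Bckdhb, chr9:83924887-83925136, plus strand: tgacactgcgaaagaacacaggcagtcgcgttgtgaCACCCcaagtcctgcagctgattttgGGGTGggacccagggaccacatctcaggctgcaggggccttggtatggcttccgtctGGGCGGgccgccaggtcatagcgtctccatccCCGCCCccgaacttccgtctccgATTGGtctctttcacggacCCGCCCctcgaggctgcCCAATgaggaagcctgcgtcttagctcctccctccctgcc
Mccc1, chr3:36000679-36000928, minus strand: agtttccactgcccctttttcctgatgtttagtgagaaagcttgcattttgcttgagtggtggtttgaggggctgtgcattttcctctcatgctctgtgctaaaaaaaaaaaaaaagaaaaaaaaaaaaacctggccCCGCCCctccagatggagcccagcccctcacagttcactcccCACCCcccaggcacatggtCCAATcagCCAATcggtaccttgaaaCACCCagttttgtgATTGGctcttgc
Among 32851 listed promoters, 32.7% held a GC box in a window of this length, 33.9% a CCAAT box and 52.0% the letters CACCC. Ppm1k held 2 GC boxes, 2 CCAAT boxes and 0 CACCC. The window printed for Bckdhb held 3 GC boxes, 2 CCAAT boxes and 2 CACCC, a second listed window of this gene (chr9:83948531-83948780) held 0 of each, and Mccc1 held 1, 3 and 2 of them. Bckdk held 0 GC boxes, 1 CCAAT box and 1 CACCC. Among the listed genes not printed, and in the same order, Hibadh held 2, 1 and 1, Ivd 0, 4 and 1, and Bckdha 0 of each. A listed window of Bcat2 (chr7:45569903-45570152) held 0, 0 and 1, and another (chr7:45571029-45571278) held 0 of each. Of the genes whose windows are not printed, Bcat2 and Bckdha lie on chromosome 7, Dbt on chromosome 3, Ivd on chromosome 2, Hibadh on chromosome 6 and Mut on chromosome 17. The motif matches describe the letters of the windows and are not binding sites.

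Arrays were normalized on the spike-in RNA added before labeling, and all log2 signals are on this scale unless another is named. The study also used spike-in probes, but the fit here was a separate one and some values differ. The log2 difference of MI minus sham was -0.33 here and -0.49 in the authors' normalized values for Dbt. For Ppm1k it was -0.63 and -0.72, and for Bckdk 0.18 in both. The log2 signals of the 10 genes were lowest in MI replicate 2 among MI mice for 10 of 10 genes, and lowest in sham replicate 2 among sham-operated mice for 10 of 10 genes. The median over all retained probes was also lowest in these mice, by 0.10 and 0.12 on the log2 scale against the sham mean. Values after scaling each array to its 75th percentile are given beside the spike-in values. After that scaling, MI replicate 2 was the lowest MI mouse for 7 genes and sham replicate 2 the lowest sham-operated mouse for 5 genes. Whether the shift lies in the RNA or in the spike-in addition was not tested. Precision is limited by the number of arrays, and the smallest p of the exact permutation test with 4 against 4 mice is 0.0286.

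In the spike-in values, 8 of the 10 genes had a lower mean in MI mice, as did 35.3% of all retained probes, and 2, Bcat2 and Bckdk, had a higher one. Neither direction passed the test: 0 of 10 genes had an adjusted p under 0.05 from limma at any fold, against a background of 3.73% of all retained probes (0.355% lower and 3.38% higher in MI mice). By significance analysis of microarrays the count was also 0, where 11.9% of all probes were called. Unadjusted, 1 gene had a p under 0.05 from limma, as did 15.4% of all retained probes. The median log2 fold change of the 10 genes was -0.20, beside 0.03 over all retained probes. On the 75th percentile scale, 5 of the 10 genes fell (adjusted p under 0.05 from limma) and 0 rose, where 8.84% of all retained probes fell and 8.70% rose (17.5% in all). Those 5 were Ppm1k, Dbt, Bckdhb, Mccc1 and Mut. On this scale the same 8 genes had a lower mean, as did 52.6% of all probes, and in the 5 that fell every MI mouse was below every sham-operated mouse, as for 12.7% of all probes. The median of the 10 genes was then -0.34, beside -0.02 over all probes. With the authors' normalized values 0 of the 10 genes fell, against 0.990% of all probes. Over 2-fold, no gene passed on either scale, against backgrounds of 0.978% and 4.24%.

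**Figure D1:**
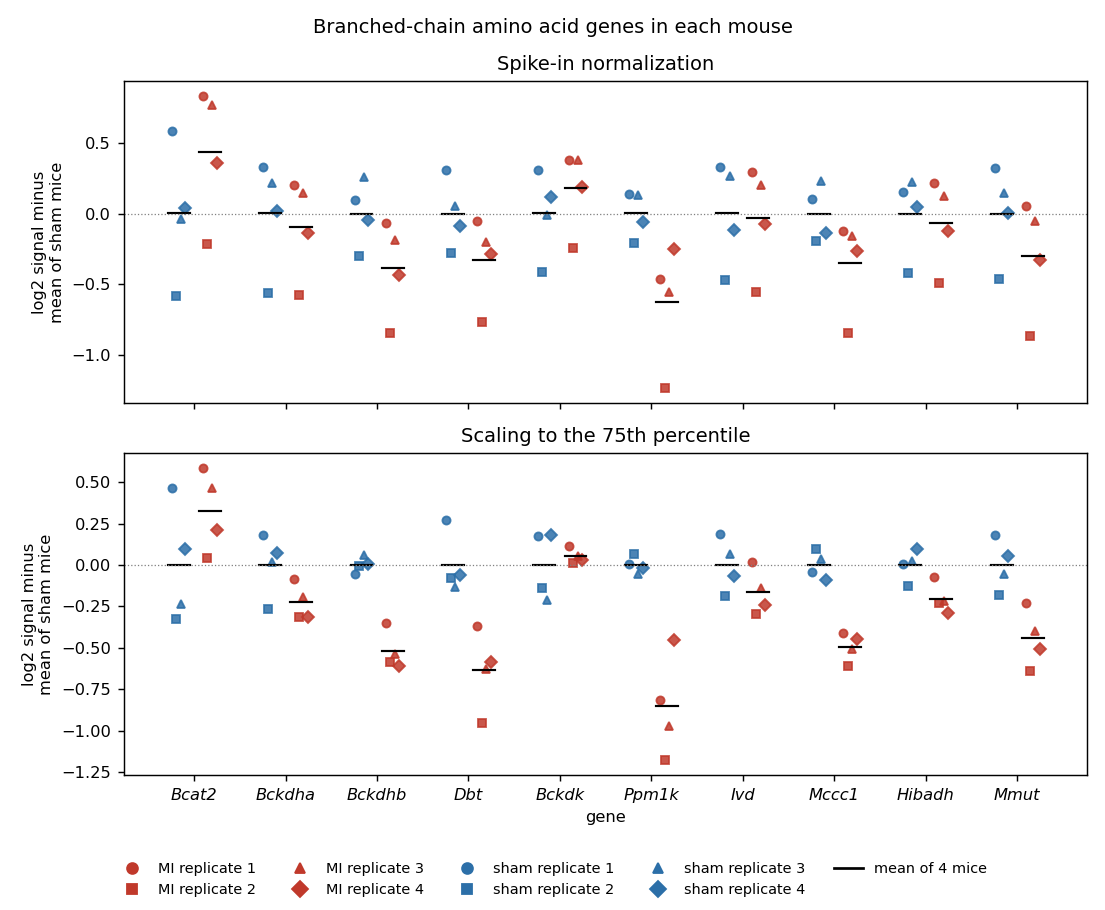
Log2 signal of each of the 10 genes in each mouse, as the difference from the mean of the 4 sham-operated mice, after spike-in normalization (upper panel) and after scaling to the 75th percentile (lower panel). Each point is 1 mouse and black lines are means of 4 mice. In the upper panel replicate 2 (squares) is the lowest mouse of its own group for every gene, and in the lower panel the MI mice lie below all sham-operated mice for 5 genes.

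Ppm1k, the mitochondrial phosphatase that activates the complex, had the largest absolute log2 difference of the 10 when all mice were used. Without MI replicate 2 (0.65 for Bcat2 and -0.42 for Ppm1k) or sham replicate 1 (0.63 and -0.58), Bcat2 had the larger one. Signals on the log2 scale were 10.64, 9.87, 10.55 and 10.85 in MI replicates 1 to 4 against 11.24, 10.89, 11.24 and 11.04 in sham replicates 1 to 4. Every MI mouse was below every sham-operated mouse. The means were 10.48 ± 0.42 (SD, n = 4) and 11.10 ± 0.17 (SD, n = 4), and differed by -0.63 on the log2 scale (standard error 0.20, limma adjusted p = 0.152). The exact permutation p was 0.0286. It was the only one of the 10 genes whose groups did not overlap in the spike-in values, where 2.39% of all probes were separated in this direction and 6.65% in the other. After scaling to the 75th percentile, Ppm1k was 0.553-fold of its sham level (-0.85 on the log2 scale with standard error 0.15, adjusted p = 0.00744 by limma). This call held with each of the 8 mice left out in turn.

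Bckdk, the kinase that inactivates the complex, had a slightly higher mean in MI mice that did not pass the test. Its log2 signals were 12.28, 11.66, 12.28 and 12.09 in MI replicates 1 to 4 against 12.21, 11.49, 11.89 and 12.02 in sham replicates 1 to 4, and the groups overlapped. MI minus sham was 0.18 on the log2 scale, with standard error 0.18 and an adjusted p of 0.791 by limma, and 0.05 after scaling to the 75th percentile (adjusted p = 0.808 from limma).

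The balance of kinase and phosphatase RNA was compared within each mouse, which removes any scale factor of the array but not its additive constant. The log2 signal of Bckdk minus that of Ppm1k was 1.64, 1.79, 1.73 and 1.24 in MI replicates 1 to 4 against 0.96, 0.59, 0.65 and 0.98 in sham replicates 1 to 4. The lowest MI mouse thus exceeded the highest sham-operated mouse. The mean difference was 1.60 ± 0.25 (SD, n = 4) after MI against 0.80 ± 0.20 (SD, n = 4) after sham surgery, so that the ratio of kinase to phosphatase signal was 1.75-fold higher after MI (exact permutation p = 0.0286, two-sided, the smallest possible). With scaling to the 75th percentile the ratio was 1.88-fold higher and in the authors' normalized values 1.87-fold, and leaving out any single mouse kept the log2 difference between groups between 0.74 and 0.92. Only the change of this difference between groups is interpretable, since 2 probes cannot be compared by level. The contrast shows unequal change of the 2 genes and not which of them changed. Ppm1k alone separated the groups with the same exact permutation p of 0.0286, so the contrast is not independent of that result. Of 7 pairs of members computed, 5 did not overlap in the spike-in values. The members were also chosen with earlier results of these data known.

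**Figure D2:**
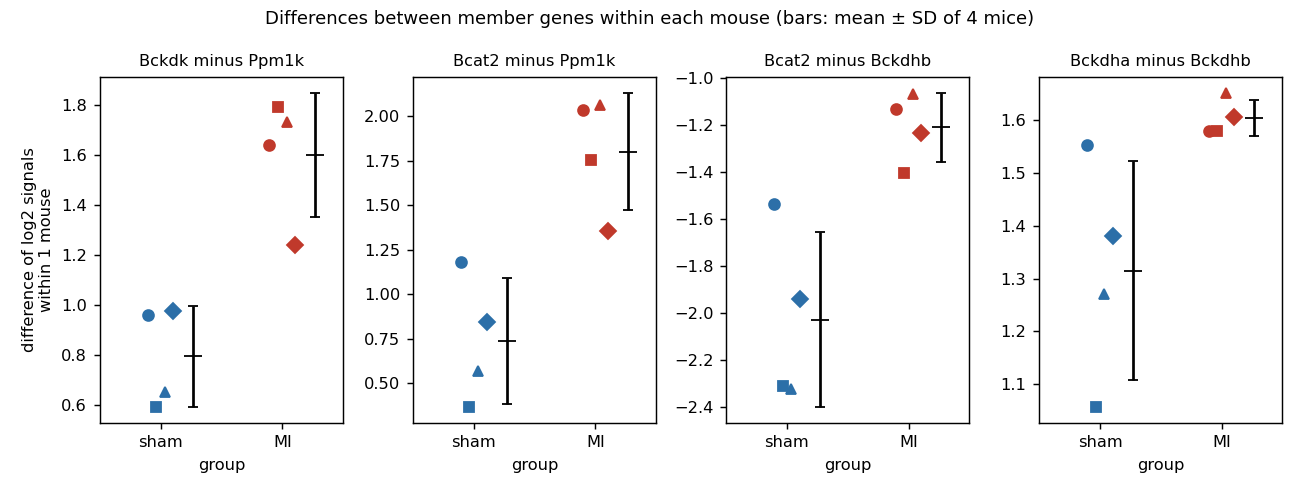
Differences of log2 signal between pairs of the 10 genes within each mouse, in spike-in normalized values. Points are mice (circle, square, triangle and diamond for replicates 1 to 4, blue for sham and red for MI), and bars are means ± SD of 4 mice. Bckdk minus Ppm1k lay between 1.24 and 1.79 after MI and between 0.59 and 0.98 after sham surgery.

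Bcat2, the mitochondrial transaminase of the first step, had a higher mean in MI mice, with wide spread. Signals on the log2 scale were 12.68, 11.63, 12.61 and 12.20 in MI replicates 1 to 4 against 12.43, 11.26, 11.81 and 11.88 in sham replicates 1 to 4. Replicate 1 of the sham group was above 2 of the MI mice, so the groups overlapped. The limma fit gave a log2 difference of 0.44 between the groups, with standard error 0.29 and adjusted p = 0.583, and 0.32 after scaling to the 75th percentile (adjusted p = 0.298 from limma). Neither value passed the test. Set against Ppm1k within each mouse, a pair chosen after the values were seen and therefore not tested, Bcat2 was 1.80 ± 0.33 (SD, n = 4) log2 units higher after MI against 0.74 ± 0.35 (SD, n = 4) after sham surgery, with no overlap.

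The 3 members that encode subunits of the complex had lower means in MI mice, and after scaling to the 75th percentile Bckdhb and Dbt fell while Bckdha did not pass. Bckdha and Bckdhb encode the alpha and beta chains of the E1 decarboxylase, and Dbt encodes the E2 transacylase that forms the core. Bckdhb had log2 signals of 13.81, 13.03, 13.68 and 13.44 in MI replicates 1 to 4 against 13.96, 13.57, 14.13 and 13.83 in sham replicates 1 to 4. MI replicates 1 and 3 were above sham replicate 2, so the groups overlapped in the spike-in values. MI minus sham was -0.38 on the log2 scale, with standard error 0.18 and an adjusted p of 0.372 by limma. With scaling to the 75th percentile, Bckdhb fell to 0.696-fold of its sham level (-0.52 on the log2 scale with standard error 0.10, adjusted p = 0.0101 by limma), and the call held with each mouse left out.

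Bckdha had log2 signals of 15.39, 14.61, 15.33 and 15.05 in MI replicates 1 to 4 against 15.52, 14.63, 15.40 and 15.21 in sham replicates 1 to 4. The groups covered nearly the same range. The limma fit gave a log2 difference of -0.09 between the groups, with standard error 0.23 and adjusted p = 0.937, and -0.23 after scaling to the 75th percentile (adjusted p = 0.251 from limma). Within each mouse, Bckdha minus Bckdhb was 1.60 ± 0.03 (SD, n = 4) after MI against 1.31 ± 0.21 (SD, n = 4) after sham surgery. The MI values, from 1.58 to 1.65, were all above the sham values, the highest of which was 1.55. This pair of E1 chains was also picked after its values were seen and was not tested. Of 7 pairs computed, 5 did not overlap in the spike-in values. There the groups overlapped for Bckdha minus Dbt (5.92 after MI, 5.69 after sham surgery) and for Ivd minus Mccc1 (1.31 and 1.00). Bckdha minus Dbt did not overlap after scaling to the 75th percentile (6.59 and 6.18) or in the authors' normalized values (6.53 and 6.15).

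Dbt was the dimmest of the 10 probes, whose unscaled intensity averaged 391 after MI and 508 after sham surgery, beside the additive constants of the normalization (166 to 257). Such a constant draws fold changes towards 0. Its log2 signals were 9.45, 8.73, 9.29 and 9.21 in MI replicates 1 to 4 against 9.81, 9.22, 9.55 and 9.41 in sham replicates 1 to 4, and the groups overlapped. MI minus sham was -0.33 on the log2 scale, with standard error 0.17 and an adjusted p of 0.444 by limma. With the constant alone left out of the spike-in values, the log2 difference was -0.50 and did not pass (limma adjusted p = 0.393). On the 75th percentile scale, which changes the scaling as well, Dbt fell to 0.645-fold (-0.63 on the log2 scale with standard error 0.15, adjusted p = 0.0214 by limma). That call was lost without MI replicate 2 or MI replicate 3, with an adjusted p of up to 0.0558 from limma.

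Ivd and Mccc1 act in leucine breakdown, where Ivd encodes isovaleryl-CoA dehydrogenase and Mccc1 the biotin-carrying chain of methylcrotonoyl-CoA carboxylase. Mccc1 had log2 signals of 12.61, 11.89, 12.57 and 12.46 in MI replicates 1 to 4 against 12.84, 12.54, 12.96 and 12.59 in sham replicates 1 to 4. MI replicate 1 lay above sham replicates 2 and 4, and MI replicate 3 above sham replicate 2. The limma fit gave a log2 difference of -0.35 between the groups, with standard error 0.17 and adjusted p = 0.398. On the 75th percentile scale Mccc1 fell to 0.710-fold (-0.49 on the log2 scale with standard error 0.10, adjusted p = 0.0117 by limma), with each mouse left out as well. The second Mccc1 probe fell to 0.748-fold there (adjusted p = 0.0312 from limma). Ivd ranged from 13.18 to 14.03 after MI against 13.26 to 14.06 after sham surgery, and differed by -0.03 on the log2 scale (standard error 0.23, limma adjusted p = 0.981).

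Hibadh, the 3-hydroxyisobutyrate dehydrogenase of valine breakdown, ranged from 13.87 to 14.57 after MI against 13.94 to 14.58 after sham surgery. Its groups differed by -0.07 on the log2 scale (standard error 0.19, limma adjusted p = 0.942), and by -0.20 after scaling to the 75th percentile (adjusted p = 0.209 from limma). Mut encodes methylmalonyl-CoA mutase, the vitamin B12-dependent enzyme that forms succinyl-CoA from the products of valine and isoleucine. Signals on the log2 scale were 12.57, 11.66, 12.47 and 12.19 in MI replicates 1 to 4 against 12.84, 12.06, 12.66 and 12.52 in sham replicates 1 to 4, again with overlap. MI minus sham was -0.30 on the log2 scale, with standard error 0.23 and an adjusted p of 0.661 by limma. After scaling to the 75th percentile Mut fell to 0.735-fold (-0.44 on the log2 scale with standard error 0.13, adjusted p = 0.0434 by limma), but this call held in only 2 of the 8 fits that left out 1 mouse, with an adjusted p of up to 0.114 from limma.

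**Figure D3:**
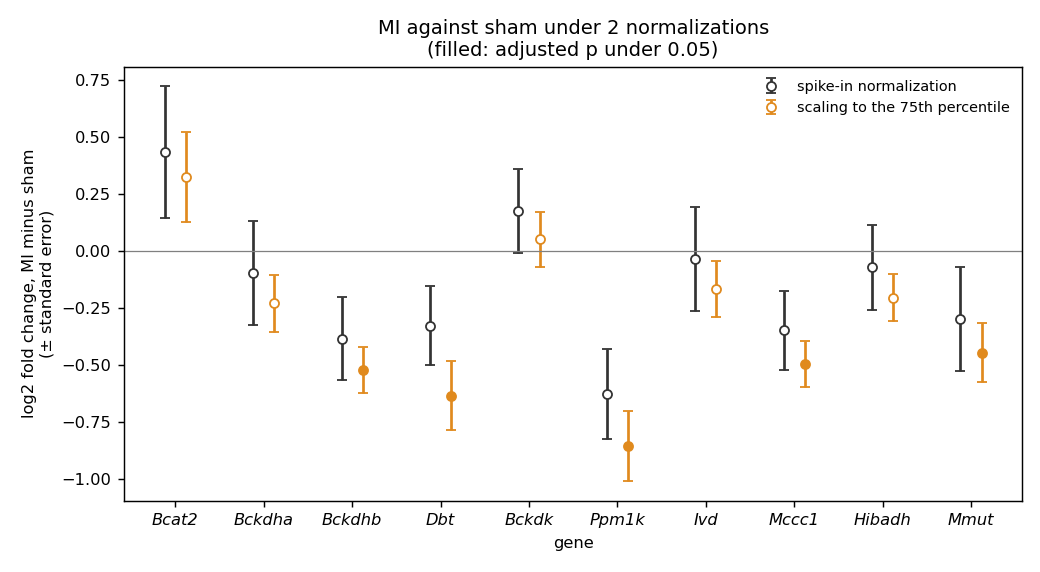
Log2 fold change of MI against sham-operated mice for the 10 genes, with the standard error from limma, after spike-in normalization (black) and after scaling to the 75th percentile (orange). Filled points have an adjusted p under 0.05. All black points are open, and the 5 filled orange points are Bckdhb, Dbt, Ppm1k, Mccc1 and Mut.

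The 8 arrays stood in 2 rows of 1 slide, with 2 mice of each group in each row. Ppm1k had a log2 fold change of -0.81 within row 1 and -0.44 within row 2. For Bckdhb the values were -0.35 and -0.42, and for Bcat2 they were 0.31 and 0.56. Each of the 10 genes had the same sign in both rows, but some values lay near 0, as for Ivd (-0.057 and -0.0071) and Hibadh (-0.0077 and -0.13).

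The rest of the pathway was described with 33 further genes for transport, the remaining enzymes, cofactor handling, electron acceptors and regulators, each with a retained probe. In the spike-in values, 28 of the 33 had a lower mean in MI mice, as did 35.3% of all retained probes. With an adjusted p under 0.05 from limma, 0 fell and 1 rose, beside 0.355% and 3.38% of all probes. At an unadjusted p under 0.05 from limma, 6 of the 33 were lower, as were 4.35% of all retained probes. With scaling to the 75th percentile, 13 of the 33 fell and 1 rose, beside the 8.84% and 8.70% of all probes. The median log2 fold change of the list was -0.19 in the spike-in values and -0.37 after the scaling.

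The gene that rose was Slc3a2, the heavy chain that carries the leucine transporter to the plasma membrane. Its log2 signals were 13.95, 13.50, 14.04 and 13.73 in MI replicates 1 to 4 against 13.14, 12.27, 13.12 and 13.00 in sham replicates 1 to 4, without overlap. The log2 fold change was 0.92 (adjusted p = 0.0477 from limma). This is near the threshold, and the call was lost without sham replicate 1 (adjusted p = 0.0649 from limma), sham replicate 3 (0.0646), sham replicate 4 (0.111), MI replicate 1 (0.119), MI replicate 3 (0.149) or MI replicate 4 (0.0947). On the 75th percentile scale it held in all 8 such fits. Slc7a5, the light chain of the same transporter, had a log2 fold change of 0.18 by its brightest probe (adjusted p = 0.598 from limma), while its second, dimmer probe rose to 1.47-fold in the spike-in values (adjusted p = 0.0107 from limma) and to 2.47-fold after scaling to the 75th percentile (adjusted p = 0.00137). The mitochondrial carrier Slc25a44 had a log2 fold change of 0.13 (adjusted p = 0.747 from limma).

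Klf15, a transcription factor that activates several of these genes in heart muscle, had the largest absolute log2 fold change among the regulators. Signals on the log2 scale were 10.85, 9.93, 10.82 and 10.89 in MI replicates 1 to 4 against 11.46, 11.39, 11.71 and 11.16 in sham replicates 1 to 4. Every MI mouse was below every sham-operated mouse. The limma fit gave a log2 difference of -0.81 between the groups, with standard error 0.22 and adjusted p = 0.101, and the gene fell by 1.04 on the log2 scale after scaling to the 75th percentile (adjusted p = 0.00536 from limma). In the authors' normalized values it fell by 0.91 on the log2 scale (limma adjusted p = 0.0340). Ppara, Ppargc1a and Esrra, regulators of mitochondrial oxidation, had log2 fold changes of -0.08, -0.31 and -0.18 and did not pass on either scale.

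By step, Mccc2 and Auh of the leucine branch fell after scaling to the 75th percentile, as Mccc1 did. The counts by step stand beside 8.84% of all retained probes that fell on that scale. Mccc2, the partner chain of Mccc1, fell by 0.50 on the log2 scale (limma adjusted p = 0.0129). Auh, the hydratase of the branch, had a log2 fold change of -0.45 in the spike-in values (adjusted p = 0.298 from limma). Of the 3 isoleucine genes, 1 fell after that scaling, Hsd17b10 with -0.52 (adjusted p = 0.0211 from limma). Of the 4 valine genes, Hibch and Aldh6a1 fell, by 0.55 each on the log2 scale. A second, dimmer Aldh6a1 probe had a log2 fold change of -0.35 there and did not pass (limma adjusted p = 0.226). On the way from propionyl-CoA to succinyl-CoA, 5 of 8 genes fell, among them the epimerase Mcee. Its groups did not overlap in the spike-in values either (log2 fold change -0.51, adjusted p = 0.130 from limma), as for 2.39% of all probes in this direction. Mmaa and Mmab also fell by their brightest probes. A dimmer Mmaa probe (-0.13, limma adjusted p = 0.647) and a dimmer Mmab probe (-0.13, 0.696) did not pass there, and another Mmab probe fell (-0.37, 0.0435). Fits with 1 mouse left out are not reported here for Mmaa, Mmab and Mmachc. Etfa and Etfdh, of the electron acceptors, also fell after the scaling (2 of 3 genes). The brightest Etfa probe was separated in the spike-in values, as Mcee was. The second Etfa probe fell after the scaling too (-0.54 on the log2 scale, limma adjusted p = 0.0399), but its groups overlapped on both scales. With 1 mouse left out, the calls of Mccc2, Auh and Aldh6a1 held in all 8 fits, that of Hibch in 6 (lost without MI replicate 2 or 3), and those of Hsd17b10 and Etfa in 5 (lost without sham replicate 2, sham replicate 4 or MI replicate 3). The calls of Mcee and Etfdh held in 4, being lost without MI replicate 2, MI replicate 3, sham replicate 3 or sham replicate 4, with an adjusted p of up to 0.0722 by limma. None of the 5 transport genes fell. Bcat1, the cytosolic transaminase, had log2 fold changes of 0.16 and, after scaling to the 75th percentile, 0.40 by its brightest probe (adjusted p = 0.121 from limma), while its 2 dimmer probes rose there to 2.22-fold and 2.11-fold (adjusted p = 0.00206 and 0.00345 from limma). In the spike-in values these probes were at 1.26-fold and 1.15-fold and did not pass (adjusted p = 0.108 and 0.243 from limma).

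**Figure D4:**
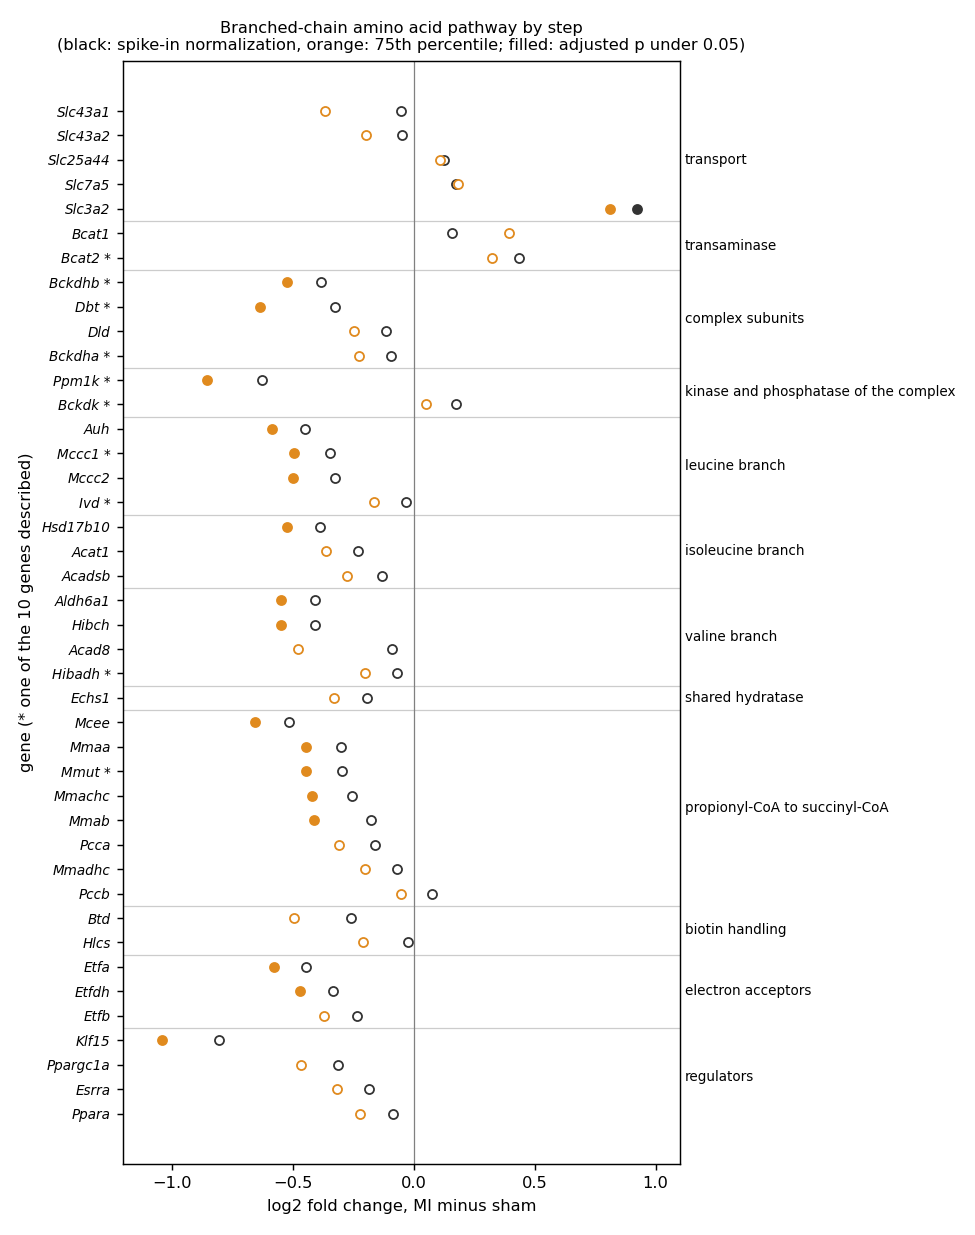
Log2 fold change of MI against sham-operated mice for genes of the pathway, grouped by step, after spike-in normalization (black) and after scaling to the 75th percentile (orange). Filled points have an adjusted p under 0.05, and the 10 genes carry an asterisk. Slc3a2 is the filled black point, and most orange points of the enzyme steps lie left of 0.

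Other mitochondrial genes give a frame for these values. The 15 fatty acid oxidation genes had a median log2 fold change of -0.22 in the spike-in values and -0.36 after scaling to the 75th percentile, where 5 fell. The 16 genes of the tricarboxylic acid cycle had medians of -0.07 and -0.20, and 2 fell after the scaling. Of all retained probes 8.84% fell on that scale. In both lists 0 genes passed in the spike-in values. After the scaling, every MI mouse was below every sham-operated mouse for 9 of the 15 and 10 of the 16 genes. The same held for 5 of the 10 genes, 19 of the 33 further pathway genes and 12.7% of all retained probes. The difference between these lists and the 10 genes was not tested.

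Cardiomyocyte markers were measured beside these genes, because the enzymes are abundant in heart muscle. The 12 markers had a median log2 fold change of -0.06 in the spike-in values and -0.19 after scaling to the 75th percentile. On the latter scale Pln fell and the other 11 did not pass, where 8.84% of all retained probes fell. The summed signal of the 12 markers on this scale ranged from 2621600 to 3219600 after MI against 2817700 to 3621900 after sham surgery. Of 7 neutrophil markers with a retained probe (Ly6g had none), 6 rose on each scale. Over all retained probes 3.38% rose in the spike-in values and 8.70% after the scaling. The summed signal of the 7 markers after the scaling was 190320 to 399330 after MI against 70895 to 80669 after sham surgery. Of 6 fibroblast markers 5 had a lower mean on each scale, as did 35.3% (spike-in values) and 52.6% (after the scaling) of all retained probes. Of these markers 0 passed, with sums of 56138 to 91624 and of 100330 to 129140. Of 6 adipocyte markers 0 passed, with sums of 67736 to 103610 and of 94874 to 135010. Of 3 skeletal muscle markers with a retained probe (Myh1, Myh2 and Myh4 had none) 1 rose, Acta1, which stressed heart muscle also expresses. In the spike-in values 2 of 6 monocyte and macrophage markers, 0 of 6 endothelial markers and 1 of 4 smooth muscle markers rose, beside 3.38% of all retained probes. The part of these cell types in the values above was not tested.

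Set against the cardiomyocyte markers of the same mouse, the median deviation of the 10 genes from the sham mean differed by -0.02 in MI replicate 1, -0.30 in replicate 2, -0.18 in replicate 3 and 0.00022 in replicate 4. Sham replicates 2 and 1 marked the ends of the other group, at -0.21 and 0.36. The groups overlapped on this measure, which is given without a test.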

How the data were processed

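Ventricular RNA of 4 mice with MI and 4 with sham surgery was hybridized to 1 array each, and groups were taken from the sample titles. Nothing in the labels ties the mice into pairs. The intensities are, per the file headers, background-subtracted and spatially detrended signals from Feature Extraction 11.0.1.1, not normalized between arrays. The log2 values deposited by the authors had been normalized on spike-in probes and served as an alternative. Here a reimplementation of the vsn model was fitted on 7 spike-in probes (234 spots), with a scale and a constant added to the signal for each array (166 to 257). Such a constant holds back the fold changes of dim probes. Outlier spots and control probes were left out, and 34038 probes well above background on at least 4 of 8 arrays were retained. Groups were compared with limma 3.58.1 (R 4.3.3), with Benjamini-Hochberg adjustment over all retained probes, and single contrasts with an exact two-sided permutation test. Figures and summaries used Python 3.11.15, numpy 2.4.6, scipy 1.17.1, pandas 2.3.3 and matplotlib 3.10.9. The scripts were tested on simulated data.

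Each gene was represented by its brightest retained probe with a RefSeq accession. The text names all 10 genes, other pathway genes that passed the test or had the largest difference of their step, and 4 regulators in any case. Further pathway genes, including those that passed only after scaling to the 75th percentile, were named after their values were seen. The pathway plot leaves out 1 listed gene that is not reported here. Members and lists were chosen with earlier results of these data known. Alternatives were scaling to the 75th percentile, a spike-in shift without constant, quantile normalization, the authors' values, normexp on median intensities (offset 50), other detection filters, the median over probes, significance analysis of microarrays with 70 permutations, blocks for array row and replicate number, and each mouse left out. The normexp values were also scaled to the 75th percentile. Leaving out each mouse after scaling to the 75th percentile, and the comparison within array rows, were added after seeing the data.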

Additional observations from a re-analysis of the deposited data

How the results depend on the processing

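Of the 10 genes 0 passed in the spike-in values under every detection filter, under the block for array row, with significance analysis of microarrays, with each mouse left out and with the spike-in shift without a constant. The count of genes that fell was 5 after scaling to the 75th percentile, 4 after quantile normalization, 5 after normexp and 0 in the authors' values, and that of further pathway genes was 13, 12, 15 and 1. The share of all probes that fell was 8.84%, 8.99%, 11.04% and 0.990% in the same order. The normexp values were also scaled to the 75th percentile and used no spike-ins, so they are not independent of that scaling. Their median over all probes was -0.12, beside -0.02 after scaling to the 75th percentile and 0.03 in the spike-in values. The share of lower calls among all calls was 9.52% in the spike-in values, 50.4% after scaling to the 75th percentile, 49.6% after quantile normalization and 60.1% after normexp. The cause was not tested.

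The 1 pathway gene that rose, Slc3a2, gave a count of 0 without a detection filter and with spots not above background set to missing. With each mouse left out the count was 0 to 1 for genes that rose and 0 to 1 for pathway genes that fell, the latter without MI replicate 2. After scaling to the 75th percentile and leaving out each mouse, 3 to 5 of the 10 genes and 4 to 14 of the further genes fell, the fewest of the 10 being 3 without MI replicate 2 or 3. Of the further genes the fewest fell without MI replicate 3 (4), sham replicate 4 (5), MI replicate 2 (6) and sham replicate 2 (7).

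Of 200 values of single genes under the alternatives, 175 kept direction and side of the threshold, 18 newly passed it and 7 changed sign, all 7 near 0 and with a mouse left out. Bckdha ranged from -0.28 to 0.068, turning without sham replicate 1 (0.017) and MI replicate 2. Ivd ranged from -0.19 to 0.14, turning without sham replicate 1 (0.077), sham replicate 3 (0.056) and MI replicate 2, and Hibadh ranged from -0.21 to 0.072, turning without sham replicate 3 (0.0049) and MI replicate 2. With each mouse left out, Bcat2 ranged from 0.24 to 0.65, Bckdk from 0.04 to 0.32, Bckdhb from -0.49 to -0.23, Dbt from -0.42 to -0.18, Ppm1k from -0.75 to -0.42, Mccc1 from -0.42 to -0.18 and Mut from -0.45 to -0.11. The median of the 10 genes ranged from -0.35 to -0.02.

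With a replicate block 4 of the 10 genes (Bckdhb, Dbt, Ppm1k and Mut) and 3 further genes fell, while over all probes 865 fell (2.54%) and 4070 rose, against 121 and 1150 without it. The numbers share no stated batch, correlations of same-numbered mice were 0.28, 0.36, 0.087 and 0.0010, and not every mouse correlated best with its own number, so the replicate block is not used as a pairing.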

Other observations

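The pyruvate dehydrogenase complex is built and regulated like the complex described above, with kinases that inactivate it and phosphatases that activate it. None of its 10 genes passed the test of limma in the spike-in values, where their median log2 fold change was -0.08. With each array scaled to its 75th percentile, their median was -0.22 and 1 of the 10 fell, beside 8.84% of all retained probes. It was the phosphatase Pdp1 (log2 fold change -0.48, adjusted p = 0.0432 by limma). The second phosphatase, Pdp2, had a log2 fold change of -0.75 there and did not pass (adjusted p = 0.128 by limma). The kinase Pdk4 had log2 fold changes of 0.05 and -0.08 on the respective scales, and Pdk2 of 0.13 and 0.0041. Those of Pdk1 were -0.07 and -0.21, and those of Pdk3 were 0.26 and 0.39. None of these kinases passed on either scale. The difference between these phosphatases and Ppm1k was not tested.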
